A study of Mus musculus with 6 samples.

Results

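Sphingosine-1-phosphate (S1P) and lysophosphatidic acid (LPA) are lipid messengers, and the genes described here make, move, destroy and sense them. The 10 members were taken by name from a table of 22964 genes: the receptor genes S1pr1, S1pr3 and Lpar1, the kinase genes Sphk1 and Sphk2, the transporter gene Spns2, the lyase gene Sgpl1, the phosphatase genes Plpp1 and Plpp3, and Enpp2. All 10 were in the table and all 10 passed the filter on low counts. No member passed the test between old and young cells. Plpp3 and S1pr1 were abundant and steady, and several others varied widely among the old samples. Of these others, only Sphk1 had a spread over the 6 samples well above that of most genes tested.

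Sphingosine kinases phosphorylate sphingosine to S1P inside cells, and the transporter Spns2 releases it. In mice, lymphatic endothelium is known as a main source of the S1P in lymph, which draws lymphocytes out of lymph nodes, and S1P acting on its receptors keeps endothelial junctions closed. LPA is made outside cells mainly by autotaxin, the product of Enpp2. Membrane phosphatases of the Plpp family strip the phosphate from both lipids, and S1P lyase breaks S1P down irreversibly.

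The cells were lymphatic endothelial cells of the meninges, the membranes around the brain, sorted as CD45-negative, CD31-positive and podoplanin-positive. The mice were untreated wild type C57BL/6J males. The old group was 20 to 24 months of age and the young group 2 to 3 months, with 3 samples each. Mice were bought from 1 of 2 suppliers, and neither the supplier nor the number of animals behind each sample is stated in the labels. P-values thus reflect how these samples scatter, which may be technical scatter.

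Estimated counts summed to between 14285794 and 20886836 in the old samples and between 15733100 and 21043945 in the young samples. Mitochondrial ribosomal RNA made up 20.2, 21.9 and 16.0% of them in old samples 1, 2 and 3 and 15.7 to 16.5% in young samples. Genes with a count numbered 17074, 17995 and 17472 in old samples 1, 2 and 3 and 18086 to 18949 in young samples. The part of these differences in the values below was not tested. The defining lymphatic markers Prox1, Lyve1, Flt4, Pdpn and Pecam1 were present in all 6 samples. So were transcripts of other cell types. The summed level of 8 lymphatic endothelial markers was 15889 to 19257 CPM (estimated counts per 1000000 counts of the scaled library) in old samples and 10098 to 12596 CPM in young samples. For 8 fibroblast markers it was 2281 to 2465 CPM in old samples and 4529 to 6866 CPM in young samples. For 9 pericyte and smooth muscle markers it was 2017, 972 and 1186 CPM in old samples 1, 2 and 3 and 644 to 983 CPM in young samples. For 8 blood endothelial markers, of cells that the sort for CD31 does not by itself separate, it was 1034 to 1587 CPM in old samples and 751 to 805 CPM in young samples, and 7 of the 8 had a positive log2 fold change. For 9 macrophage markers it was 798 to 1294 CPM in old samples, although the cells were sorted as CD45-negative. In young samples 1, 2 and 3 it was 550, 1874 and 2619 CPM. Of each of these lists, 0 members passed the edgeR test after adjustment over all genes. In bulk RNA, fewer cells of a type and less RNA per cell cannot be told apart, and the part that these other cells had in the values below was not tested.

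Per length, Plpp3 and S1pr1 stood above the other members in every sample. On the scale of CPM per kilobase of annotated exon, the Plpp3 level averaged 185 ± 24.1 in old cells and 206 ± 10.9 in young cells (SD, n = 3 each). S1pr1 followed with 99.3 ± 14.8 in old and 81.4 ± 12.0 in young cells. The lowest Plpp3 value was above the highest S1pr1 value, and the lowest S1pr1 value was above the highest Plpp1 value. Together they made up 67.1, 70.3 and 69.6% of the 10 members' summed level per kilobase in old samples 1, 2 and 3 and 80.2, 68.7 and 77.5% in young samples 1, 2 and 3.

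Below them, neighbours in the order of levels could not be separated from the spread, although the lowest Plpp1 value was above the highest value of 5 members, Sgpl1, Sphk2, Lpar1, Sphk1 and S1pr3. Plpp1 averaged 35.3 ± 4.04 CPM per kilobase in old cells and 31.3 ± 16.0 in young cells. Spns2 averaged 27.2 ± 20.3 in old and 24.5 ± 4.37 in young cells, and Enpp2 34.5 ± 4.81 in old and 16.6 ± 13.8 in young cells. The other members, Sgpl1, Sphk2, Lpar1, Sphk1 and S1pr3 in falling order of their mean over the 6 samples, averaged 4.26 to 7.19 CPM per kilobase. From Plpp1 down, the ranges over samples of each gene and the next overlapped. With the longest annotated transcript as the length, Enpp2 moved up to the third place and the other members kept their order.

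**Figure D1:**
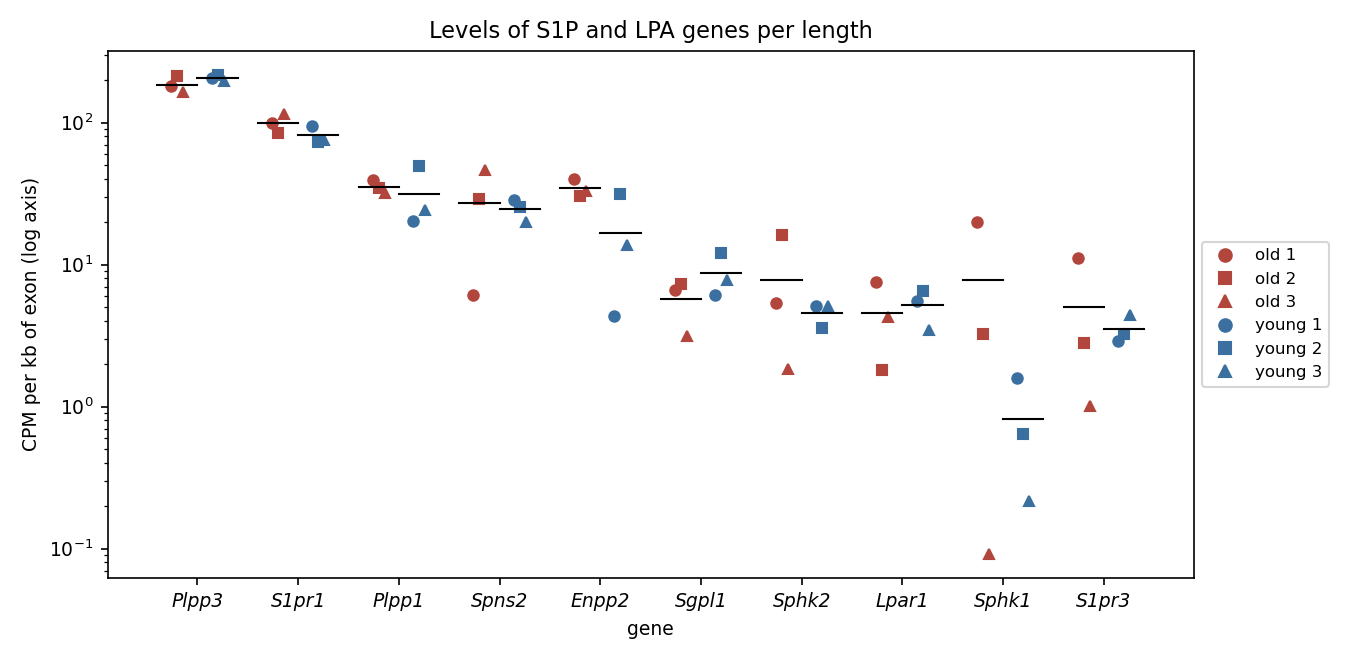
Level of each member in CPM per kilobase of annotated exon on a log axis, genes in falling order of their mean over 6 samples. Each point is 1 sample, red for old and blue for young, and black bars are the means of 3 samples. Plpp3 and S1pr1 stand above the rest in all 6 samples, while the old points of Sphk1 run from 0.092 to 20.0.

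The comparison asked whether the messages of these genes differ between meningeal lymphatic endothelium of old and young mice. In edgeR's quasi-likelihood test with Benjamini-Hochberg adjustment over the 15394 genes that passed the filter, 0 of the 10 members had an adjusted p under 0.05, and their smallest adjusted p was 0.891. Over all genes tested the share called was 0%, so the members' count is at the background. At an unadjusted p under 0.05 edgeR counted 0 of the 10 members, against 5.56% of all genes tested. DESeq2 and limma-voom also called 0 members after adjustment, where DESeq2 called 0.882% of the genes it adjusted. At an unadjusted p under 0.05, DESeq2 counted 1 member, Sphk1, against 9.13% of all genes it tested, and limma-voom counted 1, Enpp2, against 6.39%, so both are near the background. The CPM values of the old and young samples overlapped for all 10 members. Over all genes tested 12% had groups that did not overlap, so for 10 genes a count of 0 is near the background. Of the members, 7 had a positive and 3 a negative log2 fold change, old against young, with a median of 0.23. Over all genes tested the median was 0.02, and 51% were positive.

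**Figure D2:**
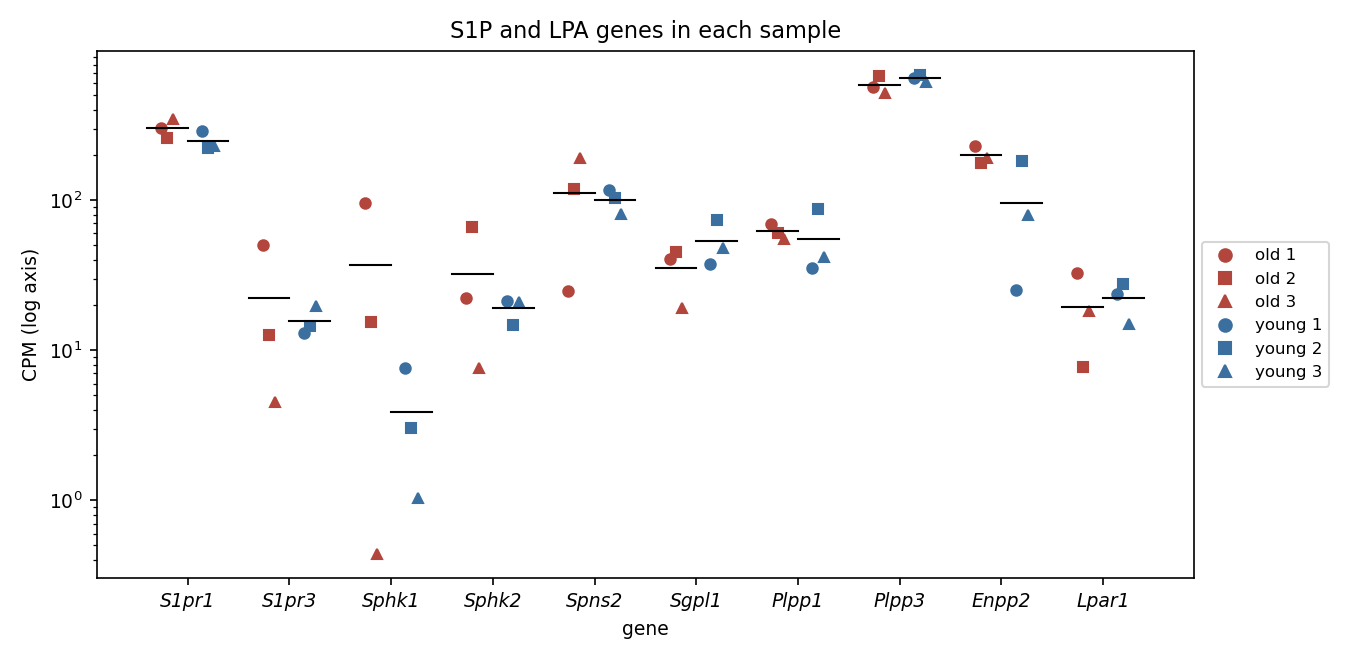
CPM of each member on a log axis, by role from receptors to enzymes. Each point is 1 sample, red for old and blue for young, and black bars are the means of 3 samples. In every gene the old and young points overlap, and the old points of S1pr3, Sphk1, Sphk2 and Spns2 spread more widely than the young ones.

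S1pr1 (chromosome 3, 115710433 to 115715072, minus strand, in GRCm38) encodes the main S1P receptor of endothelium, which couples to the Gi proteins and supports the junctions between cells. Its level was 300.6, 259 and 348 CPM in old samples 1, 2 and 3 and 290.0, 223 and 231 CPM in young samples 1, 2 and 3. The groups overlapped through young sample 1, which was above old sample 2. Old against young, its log2 fold change was 0.29 (SE 0.24, edgeR adjusted p = 0.944), with a 95% interval of −0.26 to 0.83. S1pr1 was among the steadiest genes of the table: 2.16% of the genes tested had a smaller SD of log2 CPM over the 6 samples. It was also among the most abundant, with 97.1% of the genes tested at a lower mean CPM. Its SD was not ranked against genes of like level.

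S1pr3 (chromosome 13, 51408639 to 51422797, plus strand) encodes an S1P receptor that also couples to Gq and to G12 and G13, and that is known in vascular smooth muscle as well as endothelium. It had 49.9, 12.6 and 4.54 CPM in old samples 1, 2 and 3 and 13.0, 14.4 and 19.6 CPM in young samples 1, 2 and 3. The old samples lay on both sides of the young ones, with an 11.0-fold range among them against a 1.50-fold range among the young. S1pr3 had a log2 fold change of 0.51 (SE 0.93, edgeR adjusted p = 0.971), which was −0.88 without old sample 1. Of the 9 pericyte and smooth muscle markers, 3 were also highest in old sample 1 (Acta2, Myh11 and Tagln), 3 were highest in old sample 3 (Rgs5, Abcc9 and Kcnj8), 1 in old sample 2 (Notch3) and 2 in young sample 1 (Pdgfrb and Cspg4). Acta2 and Myh11 together had 1121, 150.2 and 164 CPM in old samples 1, 2 and 3 and 111, 89.8 and 81.1 CPM in young samples 1, 2 and 3. Without that pair, which was picked after its values were seen, the other 7 markers summed to 895, 822 and 1022 CPM in old samples and 872, 554 and 613 CPM in young samples, and old sample 1 was not the highest. The part of these cells in the S1pr3 values was not tested.

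Sphk1 (chromosome 11, 116530925 to 116536674, plus strand), the sphingosine kinase that acts in the cytosol and at the plasma membrane, was the most variable member. It had 95.4, 15.5 and 0.439 CPM in old samples 1, 2 and 3 and 7.63, 3.05 and 1.04 CPM in young samples 1, 2 and 3. Old sample 1 was the highest of the 6 and old sample 3 the lowest, a 217-fold range that rests on 9 estimated counts at the low end and 1275 at the high end. Its log2 fold change was 3.25 (SE 1.56, edgeR adjusted p = 0.891), with a 95% interval of −0.30 to 6.79. Without old sample 1 it was 1.03 (SE 1.59). Of all genes tested, 92.7% had a smaller SD of log2 CPM than Sphk1. That share was 58.3% for Enpp2, 53.3% for S1pr3, 48.6% for Sphk2, 47.8% for Spns2 and 32.9% for Lpar1. The wide ranges of these 5 members were thus ordinary among the genes tested.

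Sphk2 (chromosome 7, 45709467 to 45718002, minus strand), the kinase found in the nucleus and mitochondria, had 22.4, 66.8 and 7.66 CPM in old samples 1, 2 and 3 and 21.3, 14.8 and 21.1 CPM in young samples 1, 2 and 3. Old sample 2 was above and old sample 3 below every young sample. Its log2 fold change was 0.76 (SE 0.83, edgeR adjusted p = 0.952), and −0.35 without old sample 2. Sphk2 shares exon positions with Dbp and Rpl18 on the opposite strand, and whether the counting used strand is not stated in the labels, so reads of these genes may not have been told apart. Rpl18 had 93.8, 124 and 133 CPM in old samples 1, 2 and 3 and 88.3, 54.7 and 85.3 CPM in young samples 1, 2 and 3. Dbp had 6.06, 1.09 and 7.27 CPM in old samples 1, 2 and 3 and 0, 0.254 and 6.48 CPM in young samples 1, 2 and 3. Whether reads of either gene entered the Sphk2 estimates was not tested.

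Spns2 (chromosome 11, 72451638 to 72489904, minus strand), the exporter of S1P from endothelial cells, had 24.8, 118 and 190.1 CPM in old samples 1, 2 and 3 and 116, 103 and 80.9 CPM in young samples 1, 2 and 3. Old sample 1 was the lowest and old sample 3 the highest of all, the reverse of the order of Sphk1 and S1pr3 among the old samples. The group means were close, 111 ± 82.8 CPM in old and 100.2 ± 17.9 CPM in young cells (SD, n = 3 each). The log2 fold change of 0.15 (SE 0.62, edgeR adjusted p = 0.990) was −0.49 without old sample 3. Spns2 shares exon positions with Mybbp1a on the opposite strand, which had 67.5, 33.6 and 74.9 CPM in old samples 1, 2 and 3 and 40.6, 75.5 and 68.8 CPM in young samples 1, 2 and 3, and its part in the Spns2 estimates was not tested.

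Sgpl1 (chromosome 10, 61098642 to 61147703, minus strand) encodes S1P lyase, an enzyme of the endoplasmic reticulum that cleaves S1P and so keeps its level inside tissues low. It had 40.8, 45.2 and 19.2 CPM in old samples 1, 2 and 3 and 37.8, 74.0 and 48.0 CPM in young samples 1, 2 and 3. Old samples 1 and 2 lay within the range of the young samples, and old sample 3 lay below it. Sgpl1 had a log2 fold change of −0.60 (SE 0.55, edgeR adjusted p = 0.945), with a 95% interval of −1.84 to 0.63.

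Plpp3 (chromosome 4, 105157347 to 105232764, plus strand), a membrane phosphatase that degrades LPA and S1P at the cell surface and is known in mice as a gene of vascular endothelium and its barrier, was the most abundant member. It had 568, 668 and 518 CPM in old samples 1, 2 and 3 and 650.0, 686 and 617 CPM in young samples 1, 2 and 3. Its whole range over 6 samples was 1.32-fold, and 0.305% of the genes tested had a smaller SD of log2 CPM. Of the genes tested, 99.3% had a lower mean CPM, and here too the SD was not ranked against genes of like level. The log2 fold change was −0.15 (SE 0.19, edgeR adjusted p = 0.959), and its 95% interval of −0.58 to 0.27 was the narrowest of the 10.

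The upstream sequences of 3 members with a single annotated start are shown, S1pr3 and Spns2 because they ran in opposite order over the old samples and Plpp3 because it was the steadiest. Each is the 250 bases before the RefSeq start in GRCm38.p6, read 5′ to 3′ on the gene's strand, which for Spns2 lies inside the longer GENCODE span given above, and 7 of the 10 members matched the RefSeq promoter table. Capitals mark CACCC on either strand, so GGGTG on the strand shown, which is the core of sites bound by Krüppel-like factors such as the flow-responsive KLF2 of endothelium.
S1pr3 (chr13:51408368-51408617, plus strand): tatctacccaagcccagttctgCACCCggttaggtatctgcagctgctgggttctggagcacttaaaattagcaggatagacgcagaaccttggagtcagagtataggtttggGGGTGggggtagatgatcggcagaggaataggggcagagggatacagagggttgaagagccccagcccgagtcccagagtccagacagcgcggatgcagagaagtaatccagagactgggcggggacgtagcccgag
Spns2 (chr11:72475028-72475277, minus strand): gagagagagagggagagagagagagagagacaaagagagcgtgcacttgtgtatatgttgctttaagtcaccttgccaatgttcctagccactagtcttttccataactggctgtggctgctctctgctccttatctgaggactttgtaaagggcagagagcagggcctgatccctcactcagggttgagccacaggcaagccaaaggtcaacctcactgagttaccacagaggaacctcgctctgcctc
Plpp3 (chr4:105157097-105157346, plus strand): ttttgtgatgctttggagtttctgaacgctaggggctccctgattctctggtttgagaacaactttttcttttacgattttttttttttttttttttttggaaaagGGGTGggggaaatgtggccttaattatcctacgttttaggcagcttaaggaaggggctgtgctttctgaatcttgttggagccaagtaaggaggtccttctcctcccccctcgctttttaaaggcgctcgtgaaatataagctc
The motif was found 2 times before S1pr3, 0 times before Spns2 and 1 time before Plpp3, where 52.0% of all 32851 promoter windows of this length held it at least once. CG pairs numbered 9, 2 and 6 in these windows, against a median of 6 over all windows. These letter matches describe the windows and are not evidence of binding.

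Plpp1 (chromosome 13, 112800792 to 112867894, plus strand), a phosphatase of the same family, had 69.4, 60.7 and 55.5 CPM in old samples 1, 2 and 3 and 35.3, 87.0 and 42.1 CPM in young samples 1, 2 and 3. The old samples lay between the young ones, close together. Plpp1 had a log2 fold change of 0.17 (SE 0.48, edgeR adjusted p = 0.984), and −0.07 without young sample 1. Plpp1 shares exon positions with Mtrex on the opposite strand, and Mtrex was likewise lowest in young sample 1 at 25.8 CPM and highest in young sample 2 at 108 CPM. Whether Mtrex reads entered the Plpp1 estimates was not tested.

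Enpp2 (chromosome 15, 54838901 to 54952892, minus strand) encodes autotaxin, the secreted enzyme that makes LPA from lysophosphatidylcholine and is also strongly expressed by choroid plexus epithelium. It had 230.1, 176 and 191 CPM in old samples 1, 2 and 3 and 25.2, 182 and 79.8 CPM in young samples 1, 2 and 3. The old samples were close together, with a 1.30-fold range, and all but old sample 2 were above every young sample; the young samples had a 7.23-fold range. The means were 199 ± 27.8 CPM in old and 95.7 ± 79.7 CPM in young cells (SD, n = 3 each). The log2 fold change was 1.06 (SE 0.60, edgeR adjusted p = 0.891), with a 95% interval of −0.30 to 2.41. It was 0.60 without young sample 1 and 1.92 without young sample 2, and neither passed the test after adjustment.

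The 6 choroid plexus markers summed to 685, 142 and 343 CPM in old samples 1, 2 and 3 and to 40.8, 347 and 229 CPM in young samples 1, 2 and 3. Most of this was Ttr, the transthyretin gene, at 658, 121 and 327 CPM in old samples 1, 2 and 3 and 27.9, 289 and 186 CPM in young samples 1, 2 and 3. Enpp2 and this sum were both highest in old sample 1 and lowest in young sample 1, and Ttr carried the first of these. Without Ttr, set aside after its values were seen, the other 5 markers summed to 27.4, 20.9 and 15.7 CPM in old samples 1, 2 and 3 and to 12.9, 58.7 and 43.2 CPM in young samples 1, 2 and 3, highest in young sample 2. Of these 5, Otx2 was at 0 in old sample 1 and in young sample 1 and highest in young sample 3 at 22.1 CPM. Folr1 was at 0 in old samples 1 and 3 and in young sample 1. Clic6, like Ttr, was highest in old sample 1, at 17.0 CPM, and had 8.56 CPM in young sample 1. Kcnj13 had 7.33 CPM in old sample 1 and 3.23 CPM in young sample 1, and was highest in young sample 3 at 8.55 CPM. Kl had 3.07 CPM in old sample 1 against 26.2 CPM in young sample 2. Of the 5 choroid plexus markers tested, 2 had a positive log2 fold change, old against young. The part of choroid plexus RNA in the Enpp2 values was not tested.

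**Figure D3:**
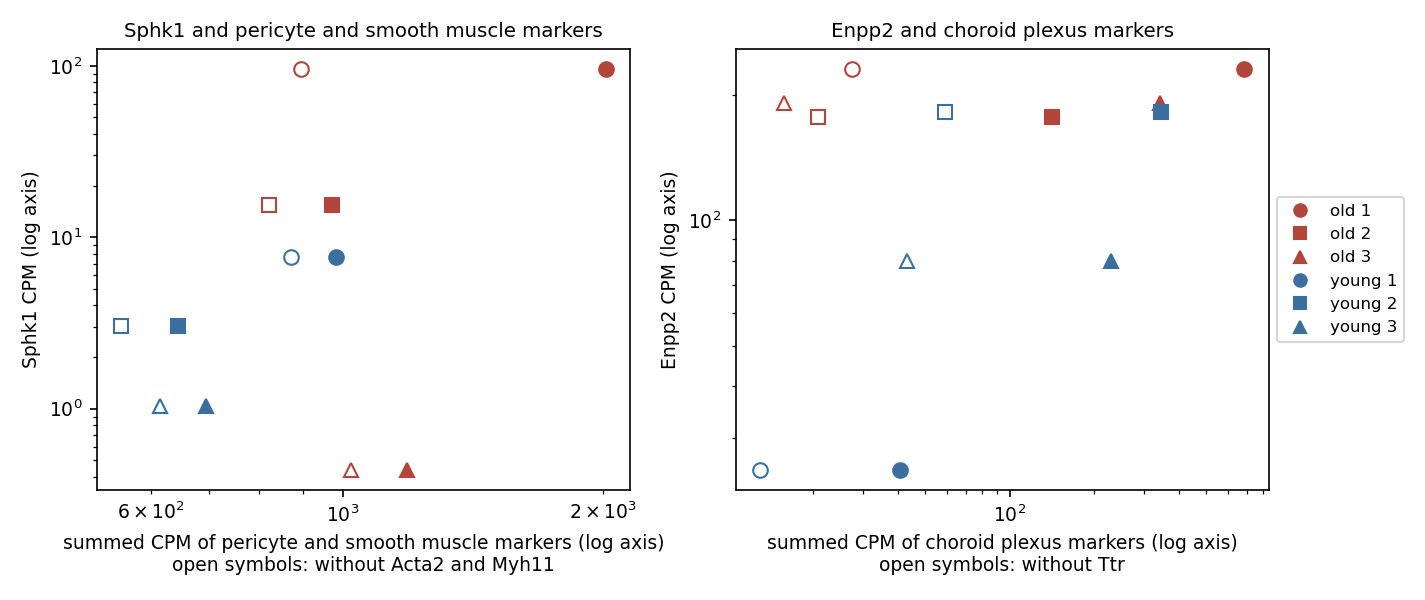
Left, Sphk1 CPM against the summed CPM of 9 pericyte and smooth muscle markers. Right, Enpp2 CPM against the summed CPM of 6 choroid plexus markers. All axes are logarithmic and each point is 1 sample, red for old and blue for young. Open symbols leave out Acta2 and Myh11 on the left and Ttr on the right. In the full sums old sample 1 is highest on both axes of both plots; without these genes old sample 3, at 1022 CPM, is highest on the left horizontal axis and young sample 2, at 58.7 CPM, on the right one.

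Lpar1 (chromosome 4, 58435255 to 58553898, minus strand), an LPA receptor best known in fibroblasts and in myelinating glia, had 32.5, 7.77 and 18.2 CPM in old samples 1, 2 and 3 and 23.8, 27.8 and 14.9 CPM in young samples 1, 2 and 3. Old sample 1 was the highest and old sample 2 the lowest of the 6. The log2 fold change was −0.18 (SE 0.76, edgeR adjusted p = 0.989), and it turned to 0.19 without old sample 2. The summed fibroblast markers were lower in every old sample than in any young one, as given above. Of the 7 markers tested, 0 had a positive log2 fold change, and of all 8, 6 were highest in young sample 1. Dcn was instead highest in old sample 1 at 767 CPM and lowest in old sample 2 at 364 CPM, as was Lpar1. The ages overlapped for Dcn, Pdgfra and Dpt. The 6 oligodendrocyte markers summed to 19.2, 103 and 67.5 CPM in old samples 1, 2 and 3 and to 34.0 to 90.1 CPM in young samples. The 4 Schwann cell markers summed to 58.3, 129 and 65.5 CPM in old samples 1, 2 and 3 and to 60.9 to 104 CPM in young samples. Nearly all of the latter sum in old sample 1 was Egr2, at 58.1 CPM. Both sums were lowest of the 6 samples in old sample 1 and highest in old sample 2, the reverse of Lpar1. The part of fibroblast or glial RNA in the Lpar1 values was not tested.

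**Figure D4:**
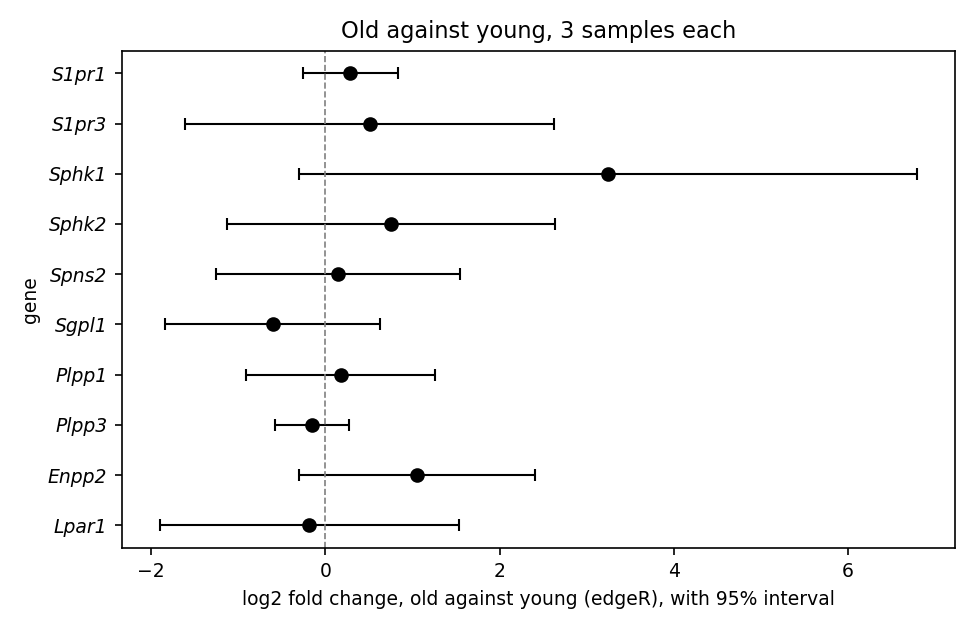
Log2 fold change of each member, old against young, from edgeR, with its 95% interval (n = 3 samples each). Every interval includes 0, and the widths run from that of Plpp3, −0.58 to 0.27, to that of Sphk1, −0.30 to 6.79.

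The 95% intervals give, gene by gene and without adjustment over all genes, the range of changes compatible with these samples. They do not bound the change that could go uncalled after adjustment. The blood endothelial marker Vwf, for example, had an interval of 1.82 to 3.52 and was not called (edgeR adjusted p = 0.235). For Plpp3 and S1pr1 a doubling or a halving, a log2 change of 1 or −1, lay outside the 95% interval. For the other 8 members at least one of these sizes lay inside it. None of the 10 is thereby shown to be equal at the ages compared.

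Old samples 1 and 3 held many of the extreme values, among the members as over all genes tested. Old sample 1 had the highest CPM of the 6 for 4 of the 10 members (S1pr3, Sphk1, Enpp2 and Lpar1), and over all genes tested it was highest for 22.5%. It was lowest for 1 member, Spns2, and for 27.15% of all genes tested, both shares being the largest of the 6 samples. Young sample 2 was highest for 3 members and for 13.4% of all genes tested. Old sample 3 had the lowest value for 5 members (S1pr3, Sphk1, Sphk2, Sgpl1 and Plpp3) and was lowest for 19.4% of all genes tested. It also had the highest S1pr1 and Spns2. S1pr3 and Sphk1 were thus highest of all in old sample 1 and lowest of all in old sample 3, and Spns2 was lowest in old sample 1 and highest in old sample 3.

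**Figure D5:**
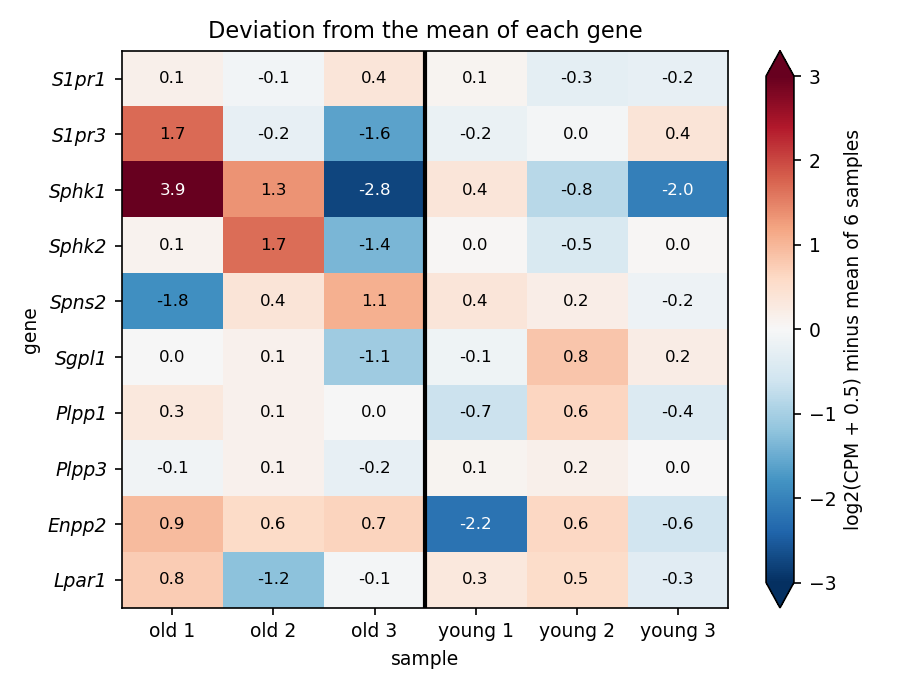
Deviation of log2(CPM + 0.5) from the gene's mean over 6 samples, with old samples left of the line and young samples right of it. Colours saturate at 3 units either way. Old sample 1 stands at 3.9 for Sphk1 and −1.8 for Spns2, old sample 3 at −2.8 for Sphk1 and 1.1 for Spns2, and the Plpp3 and S1pr1 rows are nearly flat.

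Balances between members were compared as log2 ratios of their CPM within each sample, with 4 ratios tested by exact two-sided permutation. CPM is not scaled by length, so only the difference of a ratio between the ages can be read, not its sign. With 3 samples a group, the smallest p such a test can reach is 0.1. Sphk1 over Sphk2 averaged −1.04 ± 2.74 in old and −2.45 ± 1.23 in young cells (SD, n = 3 each; exact permutation p = 0.5). In old sample 1 this ratio was 2.07, above all the other 5 samples. S1pr1 over S1pr3 averaged 4.33 ± 1.77 in old and 3.95 ± 0.45 in young cells (exact p = 0.8). Plpp3 over Plpp1 averaged 3.23 ± 0.21 in old and 3.67 ± 0.63 in young cells (exact p = 0.4). The summed kinases over the lyase Sgpl1 averaged 0.39 ± 1.41 in old and −1.17 ± 0.82 in young cells (exact p = 0.3). Old sample 3, at −1.19, lay below young samples 1 and 3 in that ratio, so the ages overlapped. Adjusted over the 4 ratios, the exact p-values were 0.667 to 0.8.

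Of the other S1P receptors, S1pr4, known mainly from lymphocytes and other leukocytes, had 12.4, 14.7 and 10.7 CPM in old samples 1, 2 and 3 and 0.807, 6.75 and 3.42 CPM in young samples 1, 2 and 3. Every old sample was above every young one, and the log2 fold change of 1.78 (SE 1.09) did not pass in edgeR (adjusted p = 0.901). The lymphocyte markers summed to 71.6, 273 and 1248 CPM in old samples 1, 2 and 3 and to 60.9, 982 and 86.2 CPM in young samples 1, 2 and 3. The immunoglobulin gene Ighm made up most of the larger sums, with 235 and 1235 CPM in old samples 2 and 3 and 979 CPM in young sample 2. Ighm was set aside after its values were seen. The other 6 markers then summed to 43.5, 38.2 and 12.6 CPM in old samples 1, 2 and 3. In young samples 1, 2 and 3 they summed to 12.3, 3.50 and 8.46 CPM. Every old sum was above every young one, though old sample 3 only narrowly. Different genes led the old sums: Cd79b at 27.7 CPM in old sample 1, Cd79a at 33.5 CPM in old sample 2 and Cd3g at 8.64 CPM in old sample 3. Cd79a in old sample 3, at 0.879 CPM, was below every young sample. Of the 7 markers with Ighm, 2, 2 and 3 were highest in old samples 1, 2 and 3. The 9 macrophage markers, of another kind of leukocyte, summed to 798 to 1294 CPM in old samples, within the 550 to 2619 CPM of young samples. Of these 9, 1 had a positive log2 fold change, old against young. The part of lymphocyte or macrophage RNA in the S1pr4 values was not tested. S1pr2 averaged 29.5 ± 23.6 CPM in old and 28.4 ± 8.97 CPM in young cells. S1pr5 was not analysed here.

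Among LPA receptors Lpar6 stood highest per length. It averaged 22.5 ± 4.10 CPM per kilobase in old and 18.6 ± 4.35 in young cells, where Lpar1 averaged 4.55 ± 2.90 in old and 5.17 ± 1.55 in young cells. In CPM, Lpar6 had 124, 97.9 and 142 in old samples 1, 2 and 3 and 73.5, 110 and 117 in young samples 1, 2 and 3, with a log2 fold change of 0.28 (SE 0.33, edgeR adjusted p = 0.959). Lpar6 shares exon positions with Rb1 on the opposite strand, so its level is uncertain without strand. Lpar4 averaged 3.72 ± 3.72 CPM in old and 9.74 ± 4.66 CPM in young cells, and Lpar2 2.95 ± 2.56 CPM in old and 0.462 ± 0.425 CPM in young cells. Lpar3 and Lpar5 did not pass the filter on low counts.

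Over a wider list of 56 genes of the pathway, from ceramide supply to the G proteins, 55 were in the table and 51 were tested. After adjustment edgeR, DESeq2 and limma-voom each called 0 of them. The list had 24 positive and 27 negative log2 fold changes with a median of −0.04, against a median of 0.02 over all genes tested. At an unadjusted p under 0.05 edgeR counted 3 genes, or 5.88%, close to the 5.56% of all genes tested. The count was 0 when libraries were scaled by their size alone, and 5 in limma-voom. The groups did not overlap for 4 genes, or 7.84%, against the 12% of all genes.

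The 3 genes at an unadjusted p under 0.05 had higher means in old cells. Sgms1, a sphingomyelin synthase, had 138, 159 and 294 CPM in old samples 1, 2 and 3 and 102, 112 and 107 CPM in young samples 1, 2 and 3, with no overlap. Sgms1 shares exon positions with the noncoding RNA gene 2700046G09Rik on the opposite strand, whose part in the Sgms1 estimates was not tested. Ugcg, which makes glucosylceramide, had 202, 430.1 and 425 CPM in old samples 1, 2 and 3 and 169.9, 216 and 215 CPM in young samples 1, 2 and 3, with an overlap through old sample 1. Sptlc2, a subunit of the enzyme that starts sphingolipid synthesis, had 285, 338 and 341 CPM in old samples 1, 2 and 3 and 257, 209 and 195 CPM in young samples 1, 2 and 3, with no overlap; it was named after its values were seen. Each had an edgeR adjusted p of 0.888.

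In the other roles, no gene reached an unadjusted p under 0.05. Gnai1, a Gi subunit, averaged 12.5 ± 8.51 CPM in old and 36.4 ± 11.4 CPM in young cells without overlap, with a log2 fold change of −1.54 (SE 0.76, edgeR adjusted p = 0.891). Rac1, a small GTPase downstream of S1pr1, averaged 853 ± 264 CPM in old and 596 ± 114 CPM in young cells, and shares exon positions with Daglb on the opposite strand. Agk, a mitochondrial lipid kinase, averaged 3.93 ± 5.79 CPM in old and 21.4 ± 15.6 CPM in young cells, and Liph, a lipase that can make LPA, 1.62 ± 1.03 CPM in old and 7.50 ± 6.88 CPM in young cells. In these 3 genes the ages overlapped, as they did in all the genes below. Abca1, a lipid exporter, averaged 1059 ± 206 CPM in old and 846 ± 169 CPM in young cells, and Mfsd2b, the S1P exporter of red cells and platelets, 1.98 ± 1.11 CPM in old and 3.57 ± 3.00 CPM in young cells. The phosphatase gene Sgpp1 averaged 80.7 ± 69.6 CPM in old and 72.3 ± 28.3 CPM in young cells, and Plpp2 2.32 ± 2.66 CPM in old and 5.41 ± 4.61 CPM in young cells. Aldh3a2, which clears the aldehyde left by S1P lyase, averaged 39.3 ± 21.1 CPM in old and 48.9 ± 18.0 CPM in young cells. Ormdl1 and Ormdl3, regulators of serine palmitoyltransferase, averaged 1.40 ± 1.44 and 12.6 ± 2.60 CPM in old cells and 7.31 ± 9.16 and 24.4 ± 16.1 CPM in young cells.

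Likeness to other genes was measured as the root-mean-square difference of mean-centred log2 CPM over the 6 samples, among 3773 genes of at least 50 CPM. The genes nearest to Plpp3 were Rpl10 (0.058 log2 units), Top2b (0.066) and Nxf1 (0.081), all of which varied little. Nearest to Sphk1 were Myl9 (1.13), Fancg (1.33) and Med28 (1.44), all highest in old sample 1. These distances were far larger than those of the genes nearest to Plpp3, so the likeness was loose. Sphk1 itself averaged 20.5 CPM over the 6 samples, so genes of its own level were not compared. Myl9, a myosin light chain of smooth muscle, had 260, 78.8 and 10.8 CPM in old samples 1, 2 and 3 and 107, 51.7 and 26.7 CPM in young samples 1, 2 and 3. Fancg had 145, 51.5 and 6.00 CPM in old samples 1, 2 and 3 and 56.3, 17.5 and 32.6 CPM in young samples 1, 2 and 3. Med28 had 183, 52.7 and 14.5 CPM in old samples 1, 2 and 3 and 16.7, 18.0 and 20.1 CPM in young samples 1, 2 and 3. The part of smooth muscle RNA in the Sphk1 values was not tested.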

How the data were processed

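RNA of the sorted cells was isolated with the PicoPure kit and linearly amplified before sequencing, per the labels' protocols. The authors deposited 1 table of estimated counts per Ensembl gene, already whole numbers, so rounding changed nothing. FastQC, Salmon and mm10 are named in the submitters' processing notes, with no versions. Annotation and strandedness are not stated. Symbols for 22738 of 22964 genes, positions and exon lengths came from GENCODE M21 on GRCm38, the assembly mm10 denotes.

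Differences were tested in R 4.3.3 by edgeR 4.0.16, after filterByExpr (minimum count 10, minimum total 15) and TMM scaling, with a robust quasi-likelihood fit on age, two-sided, Benjamini-Hochberg threshold 0.05. The SE is the log2 fold change over the root of the F statistic, and 95% intervals use the test's degrees of freedom. CPM uses TMM-adjusted library sizes. Ratios added 0.5 CPM to both terms. Levels per kilobase divide by the union of exons. Alternatives were DESeq2 1.42.0, limma-voom 3.58.1, other scalings and filters, a replicate block and leaving out each sample.

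The members and lists were chosen with earlier results of these data known. Named were all members, the remaining S1P and LPA receptors, and the 2 genes of smallest p in each other role of the pathway list. On counts simulated for this comparison with 200 of 15394 genes changed, edgeR recovered 1.49, 33.3 and 82.8% of those of at least 50 CPM changed 2-, 4- and 8-fold, with 1 false call among 78. Where the changed genes were drawn from all levels, it recovered 0, 4.35 and 10.6%, with 1 false call among 11; S1pr3, Sphk1, Sphk2, Sgpl1 and Lpar1 averaged under 50 CPM.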

Additional observations from a re-analysis of the deposited data

How the results depend on the processing

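No member and no pathway gene passed the adjusted threshold under any of the 13 alternatives, whose smallest adjusted p for a member was 0.316 (Sphk1, DESeq2). The count of all genes called was 0 in edgeR, 130 in DESeq2 and 3 in limma-voom, and 0 to 1 when 1 sample was left out, the 1 being without old sample 1. At an unadjusted p under 0.05 over all genes, edgeR counted 856, DESeq2 1374, edgeR without a filter 1543, and edgeR 696 to 1396 when 1 sample was left out, the highest without old sample 2. At that threshold the member count of 0 became 1 without a filter or without old sample 3 (both Sphk1), and 1 without young sample 2 (Enpp2). The pathway count of 3 became 5 without old sample 1 or 2, 1 without young sample 1 or 3, and 0 without young sample 2. With library size only, the median log2 fold change of all genes was −0.12 in place of 0.02, and 285 genes were higher and 546 lower at an unadjusted p under 0.05 in place of 441 and 415.

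Of 130 recomputed member log2 fold changes, 120 kept their direction; S1pr1, Sphk1, Sgpl1, Plpp3 and Enpp2 kept it throughout. With limma-voom, S1pr3 turned to −0.31 and Spns2 to −0.10, and with the replicate block to −0.13 and −0.21. Leaving out 1 sample gave −0.88 (without old sample 1) to 0.99 for S1pr3, −0.35 (without old sample 2) to 1.22 for Sphk2, −0.49 (without old sample 3) to 0.62 for Spns2, −0.066 (without young sample 1) to 0.67 for Plpp1, and −0.77 to 0.19 (without old sample 2) for Lpar1, which was 0.0015 without young sample 2. The ratio of Sphk1 over Sphk2, old minus young, was 1.41 and ran from −0.15 to 2.45 when 1 sample was left out, and that of S1pr1 over S1pr3 was 0.38 and ran from −0.51 to 1.26. The cause of these reversals was not tested, beyond the sample left out.

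The labels do not say that the replicate numbers pair old with young samples. Correlations of same-numbered deviations were 0.08, 0.05 and −0.01, and those of differently numbered ones ran from −0.09 to 0.06. Whether same-numbered samples shared a batch was not tested. The replicate block called 0 genes, and it left 712 genes at an unadjusted p under 0.05. Precision was limited by the spread between samples, with a common biological coefficient of variation of 90.1%.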
